A study of Homo sapiens with 12 samples.

Results

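The mitochondrial ribosomal protein genes are the nuclear genes with symbols starting in MRPL or MRPS, for proteins first assigned to the large or the small subunit of the mitochondrial ribosome. They were chosen by that symbol pattern in 4 comparison tables deposited by the authors, without the 5 pseudogenes that carry such a symbol. This gave 78 genes of the 23375 listed in at least 1 table. By subunit, 51 encode proteins of the large subunit and 26 proteins of the small subunit, and MRPS36 encodes a component of the 2-oxoglutarate dehydrogenase complex rather than a ribosomal protein. All 78 had an adjusted p-value in each of the 4 tables, so none was lost to a filter on low values.

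The mitochondrial ribosome translates the few proteins encoded by mitochondrial DNA, all of them subunits of the respiratory chain and of ATP synthase. Its ribosomal RNAs, MT-RNR1 and MT-RNR2, come from mitochondrial DNA, while its proteins are made in the cytosol from nuclear genes and imported. Some of these proteins have bacterial homologues and others exist only in mitochondria. E4F1 is a zinc finger transcription factor known in mouse for its role in pyruvate oxidation, cell cycle control and the DNA damage response.

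Polyadenylated RNA was sequenced from SUM159 cells, an established human triple-negative breast cancer line. The 4 groups of 3 libraries were shE4F1 cells with 140 nM gemcitabine for 24 h, untreated shE4F1 cells, shCTRL cells with 140 nM gemcitabine for 24 h, and untreated shCTRL cells, where shE4F1 is a hairpin against E4F1 and shCTRL a scrambled control hairpin. Gemcitabine, an analogue of deoxycytidine, stops DNA synthesis, and the labels describe its dose as partly inhibitory. The labels name a single hairpin against E4F1 and leave out whether replicate libraries stem from independent cultures. The p-values therefore reflect library-to-library spread, which may be technical. Values are log2 fold changes ± standard error (SE) from the authors' deposited tables unless called derived, and a gene "rose" or "fell" where its adjusted p was under 0.05. The sources used here do not say whether the log2 values were shrunken, that is, pulled towards no change where precision is low. In bulk RNA, a change in the make-up of the culture and a change in RNA per cell cannot be told apart.

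E4F1 itself fell to 0.503 times the shCTRL level in untreated shE4F1 cells and to 0.532 times the shCTRL level under gemcitabine, in the authors' deposited tables (adjusted p = 0.000778 and 1.47e-07). The mesenchymal markers VIM, CD44, FN1, ZEB1 and AXL had mean normalized counts of 4611 to 175896 in the untreated knockdown table, while the luminal markers KRT8, ESR1 and CDH1 had 2674, 9.21 and 5.34. PTPRC, a blood cell marker, had a mean of 42.6 there with a deposited log2 change of -2.21 with shE4F1, and PECAM1, an endothelial marker, had a mean of 183 and a deposited log2 change of 1.40. The other listed markers, PGR and EPCAM (luminal), CD3E and HBB (blood) and CDH5 (endothelial), have no row in the untreated knockdown table. Whether these markers have a part in the results below was not tested. The 78 genes had a median mean normalized count of 1637 in that table, over a range of 42.4 to 7671, and a median SE of 0.157, against 0.242 for all genes.

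Knockdown of E4F1 in untreated cells came with lower levels of many mitochondrial ribosomal protein mRNAs. Of the 78 genes, 30 fell (38.5%) and 4 rose (5.13%) with shE4F1, while 44 did not pass the test in the authors' deposited table. Over all tested genes 19.3% were called lower and 17.5% higher. Better measured genes are called more often, so the share is also read among genes with a mean normalized count of 1000 or more: there 18 of 56 members fell (32.1%) and 2 rose (3.57%), against 27.0% lower and 22.2% higher of 6453 genes. At a count of 50 or more, 29 of 77 members fell (37.7%) and 4 rose (5.19%), against 26.6% lower and 22.1% higher of 12689 genes. The share of members that fell was thus above the background at 50 or more and nearer to it at 1000 or more. The share that rose was below the background at both, and none of these differences was tested. The median log2 change of the 78 genes was -0.26, against 0.00 for all genes, and 59 of the 78 values lay below 0.

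**Figure D1:**
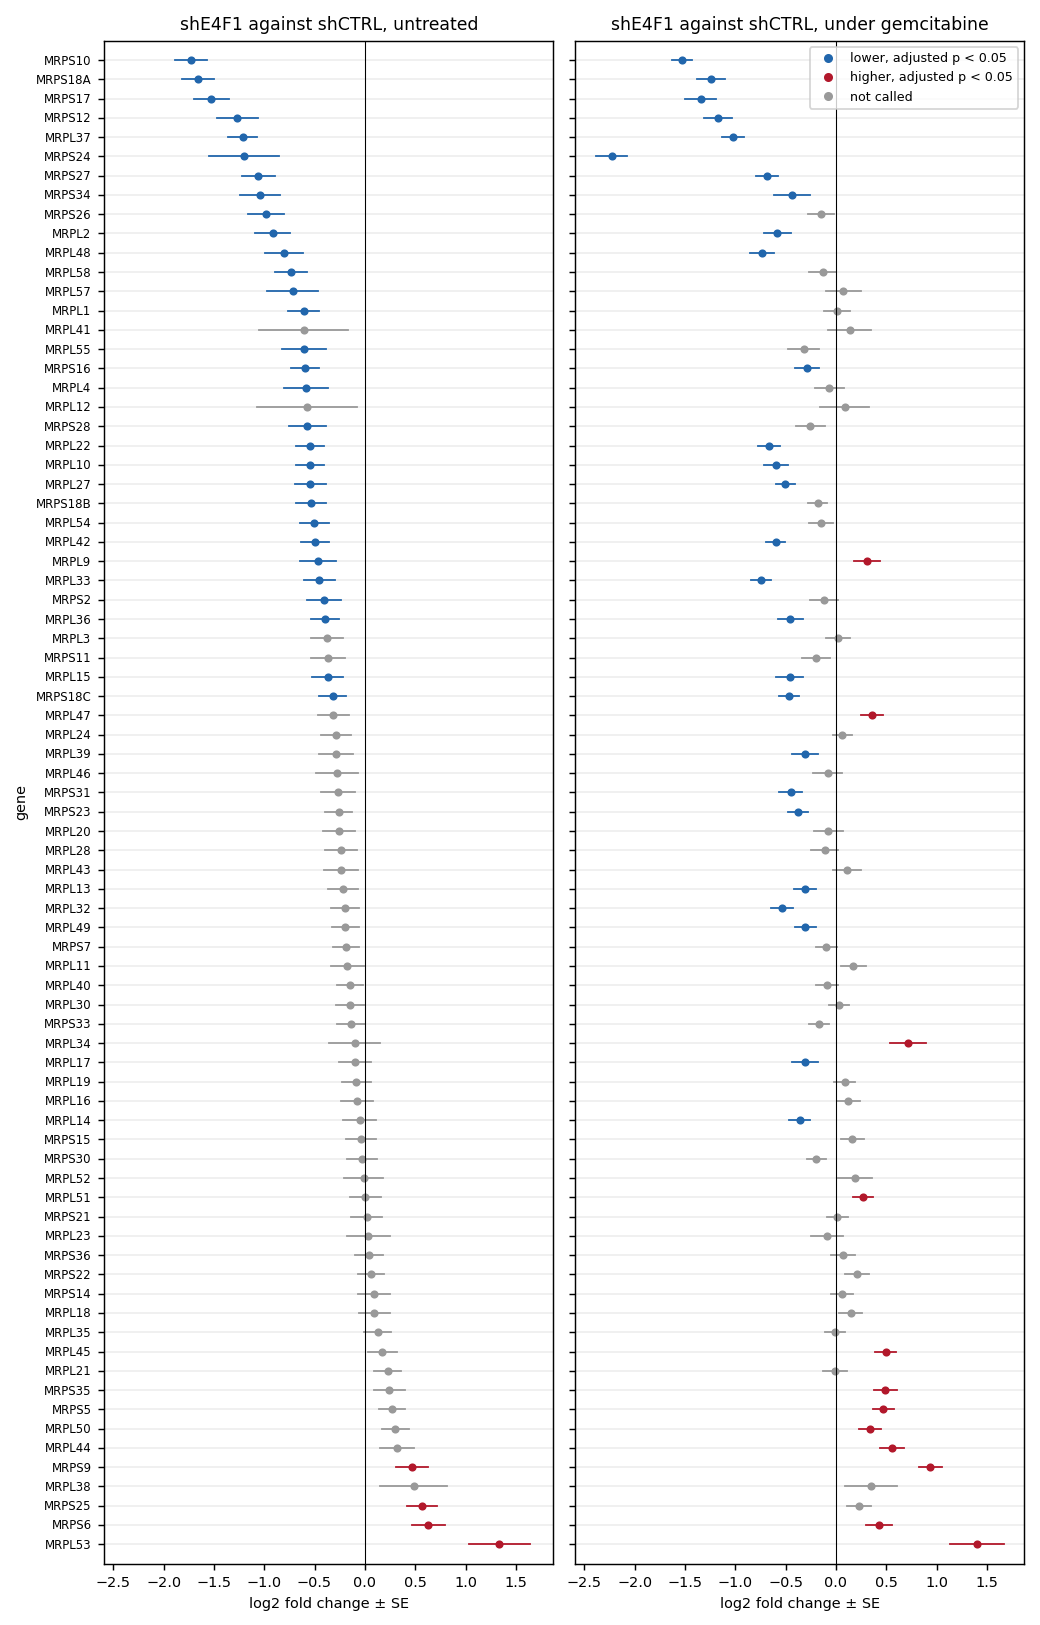
Log2 fold change with shE4F1 against shCTRL for each of the 78 genes (rows), untreated on the left and under gemcitabine on the right, in the order of the untreated values. Points are the deposited values, bars 1 SE, blue marks genes called lower, red genes called higher and grey genes not called. MRPS10 is lowest untreated at -1.73 and MRPL53 highest at 1.34.

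Of the 8 members at least 2-fold lower untreated, 6 belong to the small subunit. MRPS10 (ENSG00000048544, chr6:42206801-42217865, minus strand, GRCh38), the homologue of bacterial uS10, fell by 1.73 ± 0.155 on the log2 scale untreated (0.302 times the shCTRL level, adjusted p = 9.77e-27 in the authors' deposited table). MRPS17, the homologue of bacterial uS17, fell by 1.52 ± 0.170, or 0.348 times the shCTRL level. Of the exon bases of MRPS17, 27.0% are shared with AC092647.5 and NIPSNAP2 on the same strand. MRPS12, the homologue of bacterial uS12 at the decoding centre, fell by 1.27 ± 0.205 in the authors' deposited table. These 3 proteins all belong to the bacterial core of the small subunit, and their genes lie on chromosomes 6, 7 and 19. MRPS27 fell by 1.06 ± 0.163 and MRPS34 by 1.04 ± 0.197 in the authors' deposited table; both proteins exist only in mitochondria, and MRPS34 is known from human patients as needed for a stable small subunit. MRPS26, another protein without a bacterial homologue, fell by 0.98 ± 0.181 (adjusted p = 6.68e-07).

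MRPS24 (ENSG00000062582, chr7:43866558-43869893, minus strand, GRCh38), the homologue of bacterial uS3, fell by 1.20 ± 0.347 (adjusted p = 0.00233 in the authors' deposited table), but its mean normalized count was the lowest of all members, at 42.4. Of its exon bases, 23.2% are shared with the read-through gene URGCP-MRPS24 on the same strand. MRPS16, whose loss in humans causes a respiratory chain disease, fell by 0.59 ± 0.135. MRPS22, another human disease gene of the small subunit, had a deposited log2 change of 0.06 ± 0.134 and was not called. The small subunit genes that rose were MRPS6 by 0.63 ± 0.163, MRPS25 by 0.57 ± 0.152 and MRPS9 by 0.47 ± 0.160 in the authors' deposited table. In all, 12 of 26 small subunit genes fell and 3 rose.

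In the large subunit 18 of 51 genes fell and 1 rose. MRPS18A (ENSG00000096080, chr6:43671303-43687791, minus strand, GRCh38), which carries a small subunit symbol but sits in the large subunit, fell by 1.65 ± 0.160 in the authors' deposited table (0.318 times the shCTRL level, adjusted p = 3.71e-23). MRPL37, a large subunit protein without a bacterial homologue, fell by 1.21 ± 0.146. MRPL2, the homologue of bacterial uL2, fell by 0.92 ± 0.172. MRPL53 was the only large subunit gene that rose in this table, by 1.34 ± 0.304 (adjusted p = 7.27e-05), at a mean normalized count of 54.2. Of its exon bases 45.2% overlap CCDC142 on the same strand, and CCDC142 itself had a deposited log2 change of 1.10 ± 0.202 with shE4F1. How reads from this overlap were assigned is not given in the sources used here.

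The 3 paralogs named MRPS18 differ in place and in size of change. MRPS18A stood at 0.318 times, MRPS18B at 0.690 times and MRPS18C at 0.801 times the shCTRL level untreated in the authors' deposited table, and all 3 fell. MRPS18A, a protein of the large subunit, overlaps exons of RSPH9 on the opposite strand over 47.0% of its exon bases. MRPS18C likewise overlaps exons of ABRAXAS1 on the opposite strand over 40.2% of its exon bases, while MRPS18B has no such overlap. MRPS18B and MRPS18C are proteins of the small subunit, the second being the closest to bacterial bS18. Under gemcitabine MRPS18A and MRPS18C fell by 1.24 ± 0.141 and 0.47 ± 0.103, while MRPS18B had a deposited log2 change of -0.18 ± 0.0939 and was not called. The pairs were not tested against each other.

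The stalks of the large subunit bind translation factors and the exit-site tRNA. MRPL10, the base of the L7/L12 stalk, fell by 0.55 ± 0.136 untreated in the authors' deposited table. MRPL12, the stalk protein itself, had a deposited log2 change of -0.58 with an SE of 0.498, the widest of all members, and was not called; 68.2% of its exon bases are shared with another annotated gene on its strand. MRPL11, at the stalk base, had a deposited value of -0.17 ± 0.167 and was not called. MRPL1, the protein of the L1 stalk, fell by 0.61 ± 0.154. MRPL41 (-0.61 ± 0.440), MRPS30 (-0.03 ± 0.147), MRPL44 (0.32 ± 0.170) and MRPL3 (-0.38 ± 0.161) did not pass the test in the authors' deposited table. MRPS30 is a large subunit protein despite its symbol, MRPL44 and MRPL3 are human disease genes of the large subunit, and MRPL41 exists only in mitochondria. MRPS36, the dehydrogenase component, had a deposited value of 0.04 ± 0.138.

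Genes with and without bacterial homologues fell. Of the small subunit genes, 8 of 16 with a bacterial homologue fell and 2 rose, and 4 of 10 without one fell and 1 rose, in the authors' deposited table of the untreated knockdown. Of the large subunit genes, 11 of 30 with a homologue fell and none rose, and 7 of 21 without one fell and 1 rose. MRPS18A, MRPL58 and MRPS28, which all fell, were counted among the genes without a homologue. For MRPS18A this was done although its paralog MRPS18C is counted with one. The split depends on this assignment. The medians of these 4 classes lay between -0.34 and -0.23, close together beside the spread within each class. No test between the classes was run.

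**Figure D2:**
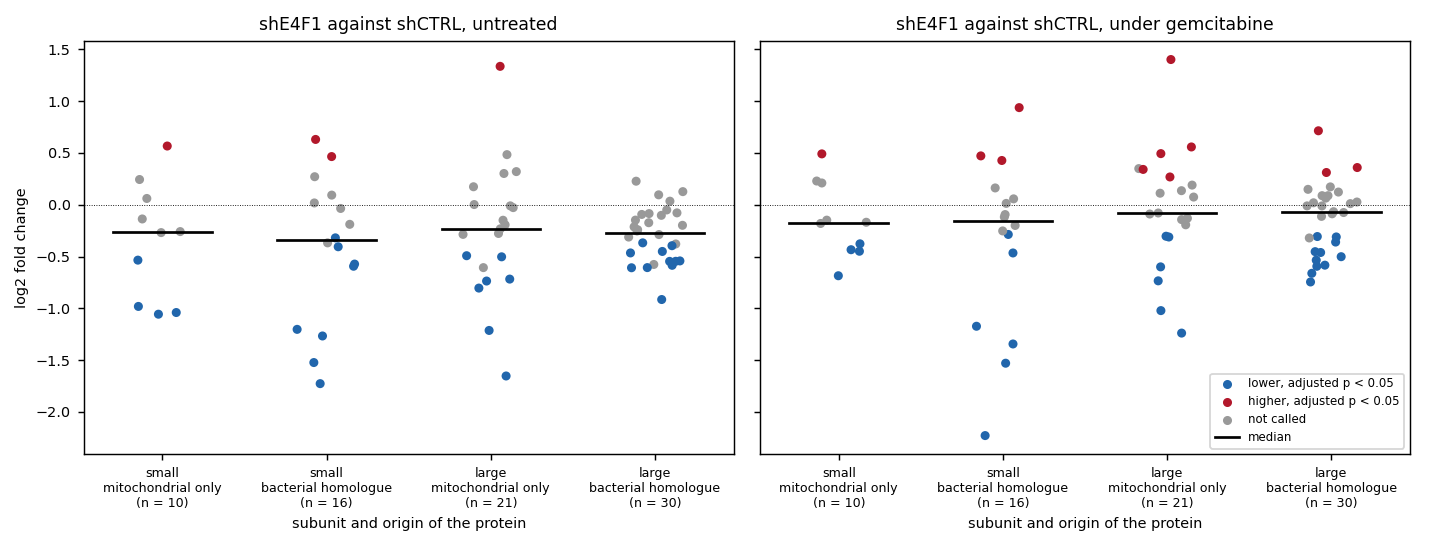
Log2 fold change with shE4F1 against shCTRL by subunit and origin of the protein, untreated on the left and under gemcitabine on the right. Each point is a gene, with its call by colour, and the black bar is the median of the class. MRPS18A, MRPL58 and MRPS28 are placed among the proteins without a bacterial homologue. The untreated class medians lie between -0.34 and -0.23, while the decreases beyond -1 occur in both subunits.

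Promoter windows are shown for the 6 members lowest with shE4F1 untreated, a choice made after their values were seen. RefSeq's promoter table (GRCh38.p14) holds 250 bases before and 50 after the start of 70 of the 78 members. The background was the 12253 genes of the untreated knockdown table with such an entry, members included. Words searched on both strands were CCGGAAG, a core bound by ETS factors such as GABPA; AAGATGGC, bound by YY1; CGCATGCG, bound by NRF1; and TGACGTAA and its shorter core TGACGT, of the ATF/CREB type that E4F1 is known to bind at the adenovirus E4 promoter. The shorter core lies inside the longer one. The windows hold 170 bases before and 30 after the annotated start, 5′ to 3′ on the gene's strand, with the ETS and YY1 words, in either orientation, in capitals. MRPS10 is at chr6:42217832-42218031 (minus strand), MRPS18A at chr6:43687762-43687961 (minus), MRPS17 at chr7:55951707-55951906 (plus), MRPS12 at chr19:38930774-38930973 (plus), MRPL37 at chr1:54199997-54200196 (plus) and MRPS24 at chr7:43869488-43869687 (minus).
MRPS10: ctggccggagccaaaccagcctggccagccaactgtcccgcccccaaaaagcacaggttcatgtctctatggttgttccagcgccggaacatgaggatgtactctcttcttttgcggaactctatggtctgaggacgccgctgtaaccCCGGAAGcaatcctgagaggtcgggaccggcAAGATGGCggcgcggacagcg
MRPS18A: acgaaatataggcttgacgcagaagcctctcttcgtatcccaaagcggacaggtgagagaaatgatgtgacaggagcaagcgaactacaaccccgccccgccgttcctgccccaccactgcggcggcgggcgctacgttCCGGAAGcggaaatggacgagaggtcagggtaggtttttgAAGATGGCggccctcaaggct
MRPS17: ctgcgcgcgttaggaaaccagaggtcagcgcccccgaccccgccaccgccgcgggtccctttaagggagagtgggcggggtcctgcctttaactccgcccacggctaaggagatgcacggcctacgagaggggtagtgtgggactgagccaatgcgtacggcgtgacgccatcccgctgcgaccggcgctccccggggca
MRPS12: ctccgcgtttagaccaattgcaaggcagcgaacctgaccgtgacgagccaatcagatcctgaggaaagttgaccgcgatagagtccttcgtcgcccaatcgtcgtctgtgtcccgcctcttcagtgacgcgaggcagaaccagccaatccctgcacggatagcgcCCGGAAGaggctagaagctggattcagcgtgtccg
MRPL37: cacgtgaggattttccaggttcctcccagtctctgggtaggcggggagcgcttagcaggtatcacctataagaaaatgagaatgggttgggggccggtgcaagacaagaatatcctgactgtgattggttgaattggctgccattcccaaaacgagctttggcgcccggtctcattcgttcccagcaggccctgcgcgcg
MRPS24: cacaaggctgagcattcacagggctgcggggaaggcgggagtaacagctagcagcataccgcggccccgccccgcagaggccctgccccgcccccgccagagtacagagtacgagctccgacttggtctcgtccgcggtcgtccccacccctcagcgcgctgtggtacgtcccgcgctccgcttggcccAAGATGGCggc
MRPS10 and MRPS18A each hold an ETS word before the start and a YY1 word just after it. MRPS12 has an ETS word next to its start, and its YY1 word lies in the longer stretch searched but not within the window shown. MRPS17 and MRPL37 hold neither word, and MRPS24 holds only the YY1 word. Of the other members at least 2-fold lower untreated, MRPS27 holds only the YY1 word and MRPS34 holds the ETS word 3 times.

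The ETS word was in 29 of 70 member promoters (41.4%) and in 17.6% of all 12253 promoters searched, and the YY1 word in 20 of 70 (28.6%) and in 4.82% of all. The NRF1 word was in 3 of 70 (4.29%) and in 3.62% of all. TGACGT was in 6 of 70 (8.57%) and in 11.1% of all, and TGACGTAA in 0 of 70, against 0.653% of all. Of the members with the ETS word 12 of 29 fell untreated, against 14 of 41 without it, and of those with the YY1 word 9 of 20, against 17 of 50 without it. The median log2 change was -0.27 with the ETS word and -0.20 without it, and -0.29 with the YY1 word and -0.25 without it. The 8 members with both words ran from -1.73 (MRPS10) to 0.48 (MRPL38). A match describes letters only and shows no binding.

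Under gemcitabine members both fell and rose with the knockdown. Of the 78 genes 27 fell (34.6%) and 12 rose (15.4%) with shE4F1 in the authors' deposited table, against 20.8% lower and 20.3% higher of all genes. Among genes at a mean normalized count of 1000 or above, 38.9% of members fell and 13.0% rose, against 30.2% and 32.8% of 6986 genes. The median of the 78 genes was -0.09, and 46 values lay below 0. In the small subunit 10 of 26 genes fell and 4 rose, and in the large subunit 17 of 51 fell and 8 rose.

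MRPS24, MRPS10 and MRPS17 stood lowest. MRPS24 fell by 2.23 ± 0.158 on the log2 scale, to 0.213 times the shCTRL level (adjusted p = 3.28e-43 in the authors' deposited table, mean normalized count 292). MRPS10 fell by 1.53 ± 0.101, MRPS17 by 1.34 ± 0.156 and MRPS12 by 1.17 ± 0.137. MRPL37 fell by 1.02 ± 0.108. These genes, with MRPS18A, were the 6 members at least 2-fold lower under gemcitabine; untreated there were 8, with MRPS27 and MRPS34 added.

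The highest values under gemcitabine were those of MRPL53 (1.40 ± 0.268), MRPS9 (0.94 ± 0.117), MRPL34 (0.71 ± 0.180), MRPL44 (0.56 ± 0.121), MRPL45 (0.49 ± 0.103) and MRPS35 (0.49 ± 0.111), all of which rose in the authors' deposited table. MRPS9 and MRPL34 are homologues of bacterial uS9 and bL34, while MRPL45 is the mitochondrial protein that ties the ribosome to the inner membrane. Of these, MRPL34, MRPL44, MRPL45 and MRPS35 had not been called untreated. MRPS16 fell by 0.29 ± 0.115, MRPL10 by 0.59 ± 0.117, and MRPS22 (0.21 ± 0.121), MRPL12 (0.09 ± 0.242), MRPL11 (0.17 ± 0.123), MRPL41 (0.14 ± 0.215), MRPS30 (-0.19 ± 0.0938), MRPL3 (0.02 ± 0.118) and MRPS36 (0.07 ± 0.119) were not called.

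The untreated and the gemcitabine knockdown tables share no library. Lower in both were 19 genes: MRPL2, MRPL10, MRPL15, MRPL22, MRPL27, MRPL33, MRPL36, MRPL37, MRPL42, MRPL48, MRPS10, MRPS12, MRPS16, MRPS17, MRPS18A, MRPS18C, MRPS24, MRPS27 and MRPS34. They were 63.3% of the 30 that fell untreated and 70.4% of the 27 that fell under gemcitabine. Over all genes with an adjusted p in both tables, 2701 were lower in both, which is 72% of the 3751 that fell untreated and 61.6% of the 4386 that fell under gemcitabine. Higher in both were MRPL53, MRPS6 and MRPS9. Called only untreated were 10 genes that fell and MRPS25, which rose, and called only under gemcitabine were 8 that fell and 8 that rose. MRPL9, the homologue of bacterial bL9, was called in opposite directions, at -0.47 ± 0.176 untreated (adjusted p = 0.0253) and 0.31 ± 0.130 under gemcitabine (adjusted p = 0.0407) in the authors' deposited tables. The remaining 28 genes were called in neither. A call in only 1 table does not show that the effects differ, which the next comparison tests.

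**Figure D3:**
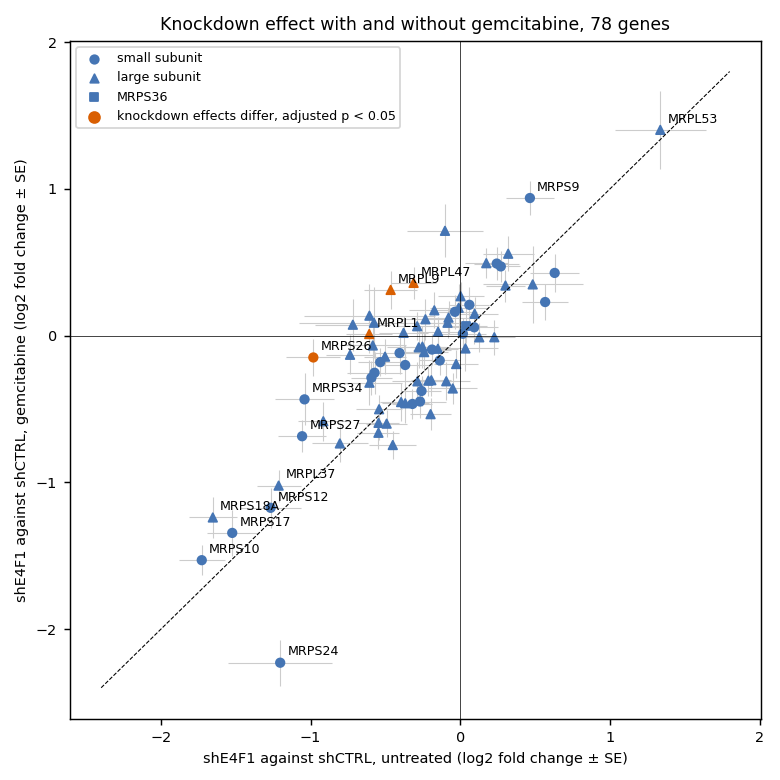
Log2 fold change with shE4F1 against shCTRL under gemcitabine (vertical axis) and untreated (horizontal axis) for the 78 genes, with bars of 1 SE and the line of equal values dashed. Circles are small subunit genes, triangles large subunit genes and the square MRPS36, and orange marks the 4 genes whose difference passed the test. MRPS10, MRPS17, MRPS12 and MRPL37 lie near the line far below 0, and the 4 orange genes lie above it.

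The knockdown effect differed with the drug for 4 members. The derived difference, the effect under gemcitabine minus the effect untreated, was 0.83 ± 0.222 for MRPS26 (adjusted p = 0.00667), 0.78 ± 0.219 for MRPL9 (adjusted p = 0.0123), 0.67 ± 0.189 for MRPL47 (adjusted p = 0.0123) and 0.62 ± 0.199 for MRPL1 (adjusted p = 0.0378), by a two-sided normal test over all genes. They are 5.13% of the members, and over all genes 2.63% were called lower and 2.81% higher. None of the 78 was called in the negative direction by that test, where 1 had an unadjusted p under 0.05, against 12 in the positive direction. These are 1.28% and 15.4% of the members, against 7.1% and 9.49% of all 20926 genes tested. The tilt is not particular to the members. The median derived difference was 0.17 for them, 0.26 for cytosolic ribosomal protein genes and 0.27 for mitoribosome assembly genes. It was 0.08 for complex I subunit genes and 0.04 for all genes. The derived difference of all genes with a mean normalized count of 50 or more had a median of 0.08. Centred on that median, 3 of the 4 calls were kept and MRPL1 was not called (0.54, adjusted p = 0.0938). MRPS26 stood at 0.902 times the shCTRL level under gemcitabine and 0.506 times untreated, and MRPL1 at 1.01 and 0.656 times, in the authors' deposited tables. MRPL47, the homologue of bacterial uL29 near the exit of the tunnel, stood at 1.28 times under gemcitabine, where it rose, and 0.805 times untreated, where it was not called (adjusted p = 0.0982). MRPS24 had the lowest derived difference, at -1.03 ± 0.381, and was not called (adjusted p = 0.0927). Its precision differed between the tables subtracted. Untreated, its mean normalized count was 42.4 and its SE 0.347, against 292 and 0.158 under gemcitabine. Whether unequal shrinkage of the log2 values has a part in this or other derived differences was not tested.

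In shCTRL cells gemcitabine moved mitochondrial ribosomal protein mRNAs in both directions. Of the 78 genes 16 fell (20.5%) and 10 rose (12.8%) with the drug in the authors' deposited table, against 13.5% lower and 14.5% higher of all genes. Centring the table on the median of genes with a mean normalized count of 50 or more turned this split to 12 lower and 12 higher. Among genes at a mean normalized count of 1000 or above, 17.7% of members fell and 14.5% rose, against 25.2% and 11.7% of 7013 genes, so the counts are near the background. The median of the 78 genes was -0.10, against -0.01 for all genes.

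The lowest were MRPL47 at -0.99 ± 0.155 (adjusted p = 4.64e-09), MRPL1 at -0.94 ± 0.157, MRPS27 at -0.87 ± 0.160, MRPL9 at -0.84 ± 0.168, MRPL34 at -0.70 ± 0.259 and MRPL57 at -0.70 ± 0.253 in the authors' deposited table. MRPS26 fell by 0.59 ± 0.177 and MRPS22 by 0.48 ± 0.132. The 4 genes whose knockdown effect differed with the drug are thus all among those that fell with gemcitabine in shCTRL cells; the 2 results share the shCTRL libraries of both conditions.

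The 6 highest were MRPS24 at 2.63 ± 0.215 (adjusted p = 1.65e-31), MRPS18C at 0.72 ± 0.136, MRPL33 at 0.70 ± 0.141, MRPL17 at 0.51 ± 0.156, MRPL49 at 0.46 ± 0.135 and MRPL32 at 0.45 ± 0.140 in the authors' deposited table. MRPL33, MRPL17 and MRPL32 are homologues of the bacterial large subunit proteins bL33, bL17 and bL32, and MRPL32 is known in mouse as a substrate that the m-AAA protease must cut before assembly. MRPS24 stood apart: it was the only member at least 2-fold changed by gemcitabine in shCTRL cells. Its partner in the read-through transcript, URGCP, had a deposited log2 change of -0.02 ± 0.134 with the drug. PTPRC also differed in the same comparisons, at -3.00 ± 0.270 with shE4F1 under gemcitabine and 1.14 ± 0.239 with gemcitabine in shCTRL cells in the authors' deposited tables; its part in the MRPS24 result was not tested. Values per library were not used here, so whether 1 library carries the MRPS24 change was not tested.

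In shE4F1 cells the response to gemcitabine was derived from deposited tables, as shE4F1 with gemcitabine against untreated shCTRL minus untreated shE4F1 against untreated shCTRL. Its SE is too large, because the untreated shCTRL libraries enter both tables. Any shrinkage that differs between those tables enters the derived values too, and this was not tested. MRPS24 was the 1 member called, at 1.67 ± 0.445 (adjusted p = 0.0217), against backgrounds of 0.185% lower and 0.925% higher of all genes. The call was lost with a minimum mean normalized count of 50, since its mean was 42.4 in the untreated knockdown table, and at an adjusted p under 0.01. The other 77 members lay between -0.51 (MRPS27) and 0.57 (MRPS18C), with a median over the 78 of 0.03. For the genes with the largest responses, derived values in shE4F1 cells were -0.35 ± 0.228 for MRPL47, -0.35 ± 0.231 for MRPL1, -0.51 ± 0.236 for MRPS27, 0.40 ± 0.220 for MRPL33 and 0.57 ± 0.199 for MRPS18C, none of them called.

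**Figure D4:**
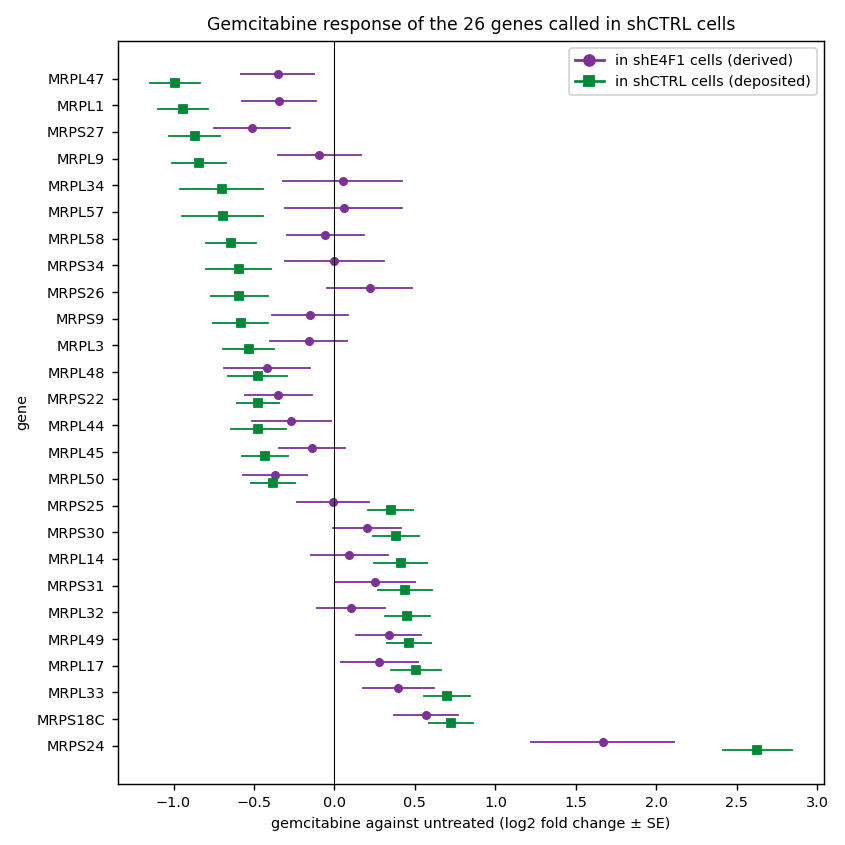
Log2 fold change with gemcitabine against untreated for the 26 members called in shCTRL cells, in shE4F1 cells (purple circles, derived) and in shCTRL cells (green squares, deposited), with bars of 1 SE. The genes were chosen by their shCTRL values, so a smaller size in shE4F1 cells shows no difference by itself. MRPS24 is far to the right in both, at 1.67 in shE4F1 cells and 2.63 in shCTRL cells.

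Across the 4 deposited comparisons, 15 members were called in opposite directions in a pair of tables. MRPL9 is the case with tables that share no library. MRPL34, MRPL44, MRPL45, MRPL47, MRPL50, MRPL9 and MRPS9 rose with shE4F1 under gemcitabine and fell with gemcitabine in shCTRL cells. MRPL14, MRPL17, MRPL32, MRPL33, MRPL49, MRPS18C, MRPS24 and MRPS31 fell with shE4F1 under gemcitabine and rose with gemcitabine in shCTRL cells. Those tables share the gemcitabine-treated shCTRL libraries, which enter them with opposite sign, so nothing is read from the pairing.

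Set against untreated shCTRL cells, shE4F1 cells with gemcitabine had 22 members lower (28.2%) and 3 higher (3.85%) in the authors' deposited table, beside 16.3% lower and 15.8% higher of all genes. Among genes at a mean normalized count of 1000 or above, 22.4% of members fell and 1.72% rose, against 27.2% and 15.1% of 6755 genes. The lowest were MRPS17 at -1.71 ± 0.182, MRPS10 at -1.66 ± 0.161, MRPS27 at -1.57 ± 0.171, MRPS18A at -1.37 ± 0.184, MRPS12 at -1.27 ± 0.215 and MRPL48 at -1.22 ± 0.191 in the authors' deposited table. The 3 that rose were MRPL53 (1.35 ± 0.287), MRPS6 (0.75 ± 0.170) and MRPS25 (0.56 ± 0.166). MRPL48, MRPL9, MRPS27 and MRPS34 were called in all 4 tables and 25 members in none. MRPL48, a large subunit protein without a bacterial homologue, was lower in each, at -0.80 ± 0.187 with shE4F1 untreated, -0.74 ± 0.123 with shE4F1 under gemcitabine and -0.48 ± 0.183 with gemcitabine in shCTRL cells. MRPS27 and MRPS34 were lower in each as well, and MRPL9 stood at -0.56 ± 0.188 in this table.

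Genes that work with the mitochondrial ribosome were read from lists of named factors. The list counts below stand beside these shares over all tested genes. With shE4F1 untreated 19.3% were lower and 17.5% higher, and under gemcitabine 20.8% and 20.3%. With gemcitabine in shCTRL cells they were 13.5% and 14.5%, and for the derived difference 2.63% and 2.81%. Of 25 genes for its assembly, 13 fell and none rose with shE4F1 untreated (14 and 0 at an unadjusted p under 0.05 from the authors' DESeq2), with a median of -0.34, and 9 fell and 5 rose under gemcitabine. The lowest untreated were NGRN (-0.98 ± 0.239), NSUN4 (-0.88 ± 0.145) and MRM1 (-0.86 ± 0.198) in the authors' deposited table; NSUN4 and MRM1 methylate ribosomal RNA, and NGRN is needed for stable MT-RNR2. Under gemcitabine MRM1 (-1.01 ± 0.127), MTG2 (-0.72 ± 0.119) and FASTKD2 (-0.59 ± 0.0998) fell furthest, while MALSU1 (0.50 ± 0.146), TRUB2 (0.46 ± 0.103) and RPUSD3 (0.31 ± 0.128) were the highest that rose in that deposited table. MALSU1 is a factor of large subunit assembly. The derived difference between the knockdown effects passed for MALSU1 (0.97 ± 0.225), NOA1 (0.67 ± 0.198) and RPUSD4 (0.65 ± 0.175).

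In shCTRL cells gemcitabine lowered 8 of the 25 assembly genes and raised METTL15 (0.44 ± 0.169), with MALSU1 (-1.18 ± 0.176), NOA1 (-0.87 ± 0.155) and RPUSD3 (-0.86 ± 0.171) lowest in the authors' deposited table. NOA1 is a GTPase of small subunit assembly. Of 5 ribosome subunits with other symbols (DAP3, PTCD3, CHCHD1, AURKAIP1 and GADD45GIP1), none was called in any comparison by the authors' DESeq2 or the derived tests; at an unadjusted p under 0.05 there was 1 with shE4F1 untreated, 2 with gemcitabine in shCTRL cells, 1 for the interaction and 0 elsewhere. Their medians were -0.01 with shE4F1 untreated and 0.14 with shE4F1 under gemcitabine.

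Among 17 translation factors, MTFMT (-0.90 ± 0.166) and MTIF2 (-0.40 ± 0.148) fell and MTRF1L (0.61 ± 0.143) rose with shE4F1 untreated in the authors' deposited table. These are 11.8% lower and 5.88% higher, against 19.3% and 17.5% of all genes. MTFMT makes the formylmethionine with which mitochondrial translation starts, and MTIF2 and MTIF3 are initiation factors. Under gemcitabine MTFMT (-0.89 ± 0.137), TACO1 (-0.35 ± 0.109) and MRRF (-0.29 ± 0.0942) fell, and MTIF3 (1.02 ± 0.143), C12orf65 (0.33 ± 0.113) and MTIF2 (0.30 ± 0.127) rose. The derived difference passed for the last 3 of these, at 0.70 ± 0.225 for MTIF3, 0.59 ± 0.189 for C12orf65 and 0.70 ± 0.195 for MTIF2. In shCTRL cells gemcitabine lowered 5 of the 17, with MTIF3 (-0.98 ± 0.187), MTIF2 (-0.78 ± 0.156) and LRPPRC (-0.47 ± 0.132) lowest, and raised MTRF1 (0.58 ± 0.185) in the authors' deposited table.

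Of 11 genes for mitochondrial DNA transcription and replication, 4 fell and 1 rose with shE4F1 untreated. These are 36.4% and 9.09%, against 19.3% and 17.5% of all genes. SSBP1, the single-strand binding protein, fell by 1.15 ± 0.142, MGME1, an exonuclease, by 1.09 ± 0.137, and POLRMT, the RNA polymerase, by 0.76 ± 0.199, while MTERF1 rose by 0.41 ± 0.147, in the authors' deposited table. Under gemcitabine 3 fell with shE4F1: MGME1 (-1.13 ± 0.110), SSBP1 (-1.09 ± 0.0909) and C10orf2, the TWNK helicase gene (-0.64 ± 0.110). Gemcitabine in shCTRL cells lowered 4 of the 11, TFB2M (-0.82 ± 0.158), POLG2 (-0.77 ± 0.173) and POLRMT (-0.52 ± 0.187) lowest, and raised MTERF1 (0.49 ± 0.152) and MGME1 (0.39 ± 0.138) in the authors' deposited table. The ribosomal RNAs were not called: with shE4F1 untreated MT-RNR1 had 0.26 ± 0.172 and MT-RNR2 0.13 ± 0.137, and under gemcitabine MT-RNR1 had 0.21 ± 0.124 and MT-RNR2 0.15 ± 0.109. Libraries were made from polyadenylated RNA, which holds these RNAs only in part.

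Of 16 genes of mitochondrial RNA processing, 4 fell and 4 rose with shE4F1 untreated and 6 fell and 4 rose under gemcitabine. Untreated these are 25% and 25%, against 19.3% and 17.5% of all genes. Under gemcitabine they are 37.5% and 25%, against 20.8% and 20.3%. GTPBP3 (-0.94 ± 0.189), PUS1 (-0.78 ± 0.202) and HSD17B10 (-0.63 ± 0.170) were lowest and KIAA0391 (0.84 ± 0.192), FASTKD5 (0.69 ± 0.168) and TRMT10C (0.47 ± 0.154) highest untreated in the authors' deposited table. HSD17B10, TRMT10C and KIAA0391 are the subunits of the mitochondrial RNase P complex, and the first fell while the other two rose. Under gemcitabine HSD17B10 (-0.62 ± 0.152), GTPBP3 (-0.51 ± 0.140) and TBRG4 (-0.42 ± 0.100) were lowest and KIAA0391 (1.04 ± 0.179), FASTK (0.48 ± 0.139) and FASTKD1 (0.43 ± 0.120) highest. In shCTRL cells the drug lowered ELAC2 (-0.34 ± 0.130) and raised none of the 16.

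Of 9 regulators of mitochondrial gene expression, the coactivators PPARGC1A (2.41 ± 0.230) and PPARGC1B (1.17 ± 0.173) rose and PPRC1 (-0.73 ± 0.180) and GABPB1 (-0.56 ± 0.150) fell with shE4F1 untreated in the authors' deposited table. These are 22.2% higher and 22.2% lower, against 17.5% and 19.3% of all genes. GABPB1 is the partner of GABPA, which binds the ETS word above. Under gemcitabine PPARGC1B (1.37 ± 0.125), PPARGC1A (1.26 ± 0.141) and ESRRA (0.38 ± 0.144) were the highest of 4 that rose, and PPRC1 (-0.36 ± 0.112) fell. The derived difference passed for PPARGC1A, at -1.15 ± 0.270. In shCTRL cells gemcitabine lowered MYC (-0.74 ± 0.129), NRF1 (-0.64 ± 0.162), YY1 (-0.48 ± 0.144) and GABPB1 (-0.38 ± 0.147) and raised PPARGC1A (1.04 ± 0.244) in the authors' deposited table.

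With both changes together, shE4F1 with gemcitabine against untreated shCTRL cells, 9 of the 25 assembly genes fell and none rose, NGRN (-0.94 ± 0.252), NOA1 (-0.91 ± 0.161) and MALSU1 (-0.72 ± 0.194) lowest in the authors' deposited table. Over all tested genes 16.3% were lower and 15.8% higher in that comparison. Of the 17 translation factors MTFMT (-0.99 ± 0.180), MTIF2 (-0.51 ± 0.174) and MRRF (-0.42 ± 0.158) fell and MTRF1L (0.41 ± 0.160) rose. Of the 11 mitochondrial DNA genes 6 fell, SSBP1 (-1.15 ± 0.149), C10orf2 (-0.84 ± 0.165) and MGME1 (-0.75 ± 0.151) lowest, and none rose. Of the RNase P genes HSD17B10 fell (-0.75 ± 0.196) and KIAA0391 rose (0.70 ± 0.216), and GTPBP3 (-0.74 ± 0.196) and TBRG4 (-0.63 ± 0.148) fell and FASTKD5 (0.44 ± 0.176) rose among the 16 RNA processing genes. Of the 9 regulators 5 fell, PPRC1 (-0.62 ± 0.187), GABPB1 (-0.50 ± 0.162) and NRF1 (-0.49 ± 0.175) lowest, while PPARGC1A (2.28 ± 0.230) and PPARGC1B (1.27 ± 0.180) rose. In the derived response of shE4F1 cells to gemcitabine no gene of these lists was called by the normal test, and 0 had an unadjusted p under 0.05.

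Cytosolic ribosomal protein genes and complex I subunit genes give a scale, read beside the shares of all genes given above. Of 81 tested cytosolic ribosomal protein genes 8 fell and 3 rose with shE4F1 untreated, with a median of 0.02, against -0.26 for the mitochondrial ones. Under gemcitabine 5 of 84 fell and 43 rose with shE4F1, and gemcitabine in shCTRL cells lowered 52 of 81 and raised none. RPL22L1 (-2.76 ± 0.168), RPS3A (-1.25 ± 0.158) and RPL17 (-0.91 ± 0.151) were lowest untreated in the authors' deposited table. Of 36 complex I subunit genes 3 fell and 3 rose with shE4F1 untreated, 4 fell and 5 rose under gemcitabine, and 1 fell with gemcitabine in shCTRL cells. These counts were not tested against those of the mitochondrial ribosomal protein genes.

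**Figure D5:**
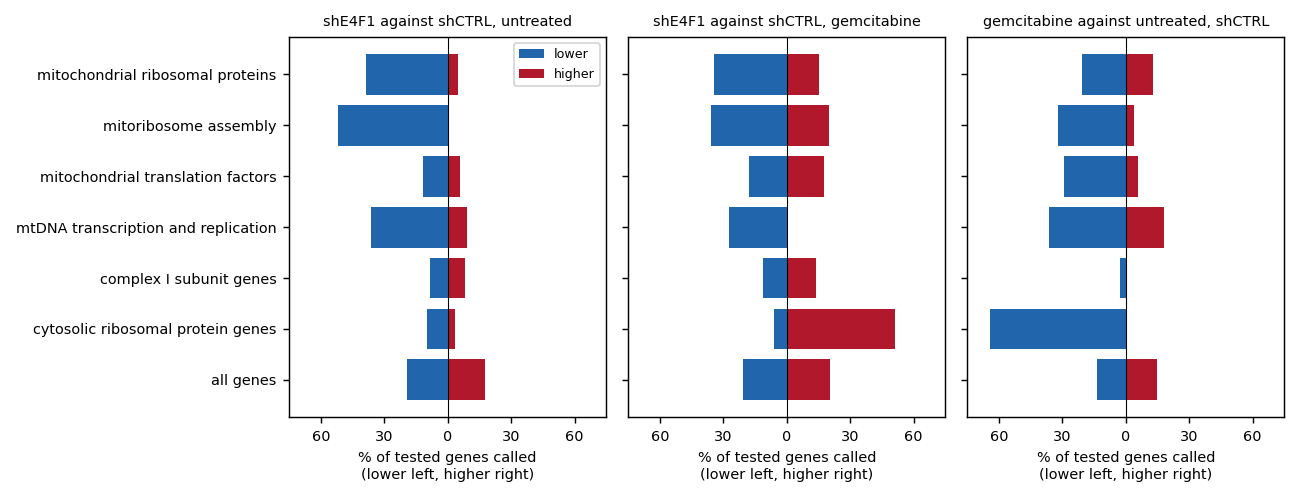
Share of tested genes called lower (blue, to the left) and higher (red, to the right) in 3 deposited tables, for the mitochondrial ribosomal protein genes, related gene lists and all genes. With shE4F1 untreated the mitochondrial ribosomal protein genes have 38.5% lower and 5.13% higher, and with gemcitabine in shCTRL cells the cytosolic ribosomal protein genes lie to the lower side.

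Some members share a promoter region with a neighbour that starts on the other strand within 1000 bases. This held for 19 members in 18 pairs, MRPL46 and MRPS11 being partners of each other with 34 bases between their starts. With shE4F1 untreated, both genes of a pair were called the same way in 2 cases, in opposite ways in 1, the member alone in 4, the partner alone in 4 and neither in 7. Over all tested genes 19.3% were called lower and 17.5% higher untreated, and 20.8% and 20.3% under gemcitabine. Some unrelated pairs would thus be called together. Pairs of other genes were not counted, so nothing about shared promoters is read from these counts. MRPL27 fell by 0.54 ± 0.152 beside EME1, a nuclease subunit gene 6 bases away, at -1.59 ± 0.155 in the authors' deposited table. MRPL57 fell by 0.72 ± 0.251 beside SKA3, a kinetochore gene, at -1.01 ± 0.162. MRPS34 fell by 1.04 ± 0.197 beside EME2, which rose by 0.67 ± 0.223. Under gemcitabine the same-way count was 3 and the opposite count 1, the opposite pair being MRPL47, which rose, beside NDUFB5, which fell by 0.24 ± 0.0981.

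Overlap with other genes limits some values. Of the 78 members 41 share exon bases with another gene in GENCODE 29, 16 of them on the same strand. The 37 members without such overlap had 15 lower and 0 higher with shE4F1 untreated (40.5% called), and 13 lower and 3 higher under gemcitabine (43.2% called). MRPS10, MRPS34, MRPS26 and MRPL1 are among these 37, and MRPL53, MRPS24, MRPL12, MRPS17, MRPS18A, MRPS12 and MRPL37 are not.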

How the data were processed

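The 12 libraries of SUM159 cells, 3 in each of 4 groups, were stranded mRNA libraries sequenced from one end over 50 bases, per the labels. The authors' tools, per the submitters' processing notes, include HTSeq 0.9.0, TopHat2 2.1.1, Bowtie2 2.2.9, DESeq2 1.14.1, R 3.4.0, FastQC and bcl2fastq, with the build GRCh38.p7. Annotation, strand setting, model formula and any shrinkage of the log2 fold changes are not given in the sources at hand. Reads of overlapping genes and near-identical pseudogenes may thus be split in unknown ways.

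The 4 deposited tables hold, per the file headers, normalized counts averaged over the compared libraries (a signal), the log2 fold change and its SE, a Wald score, a p-value and a Benjamini-Hochberg adjusted p-value, all computed by the authors. Adjusted p-values were used as deposited, and missing ones were left missing. None of the 12 columns of a count table was used, because their names match no label; depth per library is therefore not given, and the SE and mean normalized count stand for precision.

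A further 2 comparisons were derived as differences of deposited log2 fold changes, with SEs from summed variances, a two-sided normal test and Benjamini-Hochberg adjustment over 20926 genes (the interaction) and 21085 genes (gemcitabine in shE4F1 cells), in Python 3.11.15 with scipy 1.17.1, pandas 2.3.3 and numpy 2.4.6. The normal test and its adjustment were run on simulated differences drawn with the derived SEs. That simulation includes neither the subtraction of 2 tables nor shared libraries, so it does not check the derived SEs. Overlaps and neighbours come from GENCODE 29 (GRCh38) and promoters from RefSeq (GRCh38.p14); 8 members have no promoter entry.

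The members and lists were chosen with earlier results of these data known. Named members are, in each comparison, the 6 lowest and 6 highest among those called, those called in opposite directions or in all 4 tables, and a set named by role; named list genes are the 3 lowest and 3 highest called of each list in each comparison, with E4F1, MT-RNR1 and MT-RNR2. Neighbours, overlapping genes and markers named beside a member were chosen after their values were seen. Alternatives were a stricter adjusted p, a minimum mean of 50, no gene left out, centring, and values read from other tables. The share without exon overlap was added after seeing the data.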

Additional observations from a re-analysis of the deposited data

Results flagged for a closer look

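The knockdown effect differed with and without gemcitabine, by a test of the difference itself, for 4 members. They are 5.13% of the members, all positive, while over all genes 2.63% were called lower and 2.81% higher. The total called is thus near the general share. Only 1 of the 4 held at an adjusted p under 0.01, and centring kept 3, without MRPL1. The derived differences (effect under gemcitabine minus effect untreated, log2) were 0.83 for MRPS26, 0.78 for MRPL9, 0.67 for MRPL47 and 0.62 for MRPL1. Each is the difference of 2 deposited tables without a shared library. MRPL9 is also the member called in opposite directions in those tables, and 38.5% of its exon bases overlap other genes.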

How the results depend on the processing

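No called member changed direction in the alternatives run, but most of them could not have changed one. A stricter adjusted p, a minimum mean and leaving no gene out do not alter the log2 values. Centring moved them by 0.0804 at most, and reading from the other tables reuses the same libraries. With the main counts being 39 members for the knockdown under gemcitabine and 26 for gemcitabine in shCTRL cells, reading them from the other tables gave 14 and 9 calls, since the summed variances count shared libraries again and widen the SE. An adjusted p under 0.01 left 15 of 26 members for gemcitabine in shCTRL cells, 1 of 4 for the interaction and 0 of 1 for gemcitabine in shE4F1 cells. A minimum mean of 50 also left 0 for the last, because MRPS24 has a mean of 42.4 untreated. Members without exon overlap (37 of 78) gave 15, 16, 2, 13, 0 and 11 calls for the knockdown untreated, the knockdown under gemcitabine, the interaction, gemcitabine in shCTRL cells, gemcitabine in shE4F1 cells and both changes together; fewer genes were counted there. The shares of all genes called in these comparisons are given with the results above. Centring left 30 of 34 untreated knockdown calls and 3 of the 4 interaction calls.

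No paired analysis was possible because the columns of the deposited count table could not be matched to samples and the comparison tables give no values per library; leaving out each replicate in turn was not run for the same reason. The untreated knockdown could not be read from other tables. For genes with a low mean, such as MRPS24 and MRPL53, the SE limits what can be called, and shrinkage of their log2 values was not tested.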
